A study of Mus musculus with 8 samples.

Results

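The 188 long intergenic noncoding RNAs (lincRNAs) described here were detected in whole mouse kidney. They are the genes that the deposited table types as lincRNA and whose FPKM (fragments counted per gene, divided by its length and by the library's depth) averaged at least 1 over 8 libraries, with chromosomes X and Y left out. They made up 15.1% of the 1242 lincRNAs off X and Y, out of 23386 genes listed in all. The members were thus chosen by their level, the mean FPKM: just inside it stood Gdap10, Gm9917 and RP23-402K24.5 with means of 1.01, 1.03 and 1.03 FPKM, and just outside it Gm16740, Gm2115 and Gm4890 with 0.989, 0.988 and 0.967 FPKM.

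The libraries came from Ctrp1-/- (KO) mice and their wild-type (WT) littermates, 4 of each, all 49 weeks old and on a C57BL/6J background. In KO mice the coding part of exon 4 of C1qtnf1, the gene for the secreted protein CTRP1, and a stretch of its 3'UTR are deleted in every cell of the body. The allele was made in 129S5/Sv embryonic stem cells and backcrossed for more than 6 generations, so that chromosome 11 near the gene may still carry 129 sequence in KO mice. Each library held the poly(A)-selected RNA of the left kidney of 1 animal, the series' design text calls the 4 of a genotype biological replicates, and the sex of each animal is not given in the labels used here.

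LincRNAs are transcribed between protein-coding genes by RNA polymerase II, and most are spliced and polyadenylated like messenger RNAs but hold no long reading frame. Many stay in the nucleus, where a few build nuclear bodies or act on nearby genes, while others serve mainly as the precursor of a microRNA or of small nucleolar RNAs released from their introns. Their levels are usually low and often restricted to 1 cell type, so that in a bulk kidney a change in the number of cells and a change in the RNA of each cell cannot be told apart.

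The libraries held between 15027400 and 19256378 counted reads, which were recovered from the FPKM values as whole numbers. Values given as scaled FPKM are FPKM divided by a factor per library (between 0.978 and 1.03), those given as plain FPKM are deposited means, and a level after ± is the SD over the 4 libraries of a genotype. C1qtnf1 followed the labels: its level was 0.325 ± 0.174 scaled FPKM in KO kidneys and 3.63 ± 0.877 in WT kidneys (SD, n = 4 each), an 11.2-fold lower mean in KO (limma adjusted p = 0.000768, exact two-sided permutation p = 0.0286, the smallest that 70 arrangements allow). Markers of proximal tubule, thick ascending limb, distal tubule, collecting duct, podocytes, endothelium and leukocytes were present in every library. Xist, the lincRNA that female cells make from the inactive X chromosome, lay between 0.00349 and 0.0169 scaled FPKM in the 8 libraries. Adipocyte markers summed to between 0.406 and 2.04 scaled FPKM in KO kidneys and between 0.279 and 6.01 in WT kidneys, and adrenal cortex markers to between 1.21 and 1.51 in KO kidneys and between 1.26 and 1.61 in WT kidneys. KO replicate 3 and WT replicate 3 had the highest summed levels of urothelial genes in their genotypes, which is given with the variable members below.

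The library protocol captured RNA by its poly(A) tail. Whether the annotated end of a transcript is the end of the captured RNA, and whether it bears on which lincRNAs were seen, was not tested. Annotated ends are shown for members that the results turn on, as the last 30 bases of the longest GENCODE M21 transcript (GRCm38, the build named mm10). The sense strand is given, with the polyadenylation signal AATAAA in capitals where it is present.
Malat1 (chr19:5795690-5795719, minus strand): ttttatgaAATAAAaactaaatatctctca
Neat1 (chr19:5824708-5824737, minus strand): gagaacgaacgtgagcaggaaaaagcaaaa
Lhx1os (chr11:84535801-84535830, plus strand): aaagtgttaAATAAAactgtaagaaacgct
Snhg12 (chr4:132310995-132311024, plus strand): agttggttcAATAAAgacttttggaaagtg
Gm27216 (chr9:83240491-83240520, minus strand): aaatctttaataataatAATAAAgagtccc
1600020E01Rik (chr6:86564420-86564449, plus strand): gggaaagaagtaaaggaaatcttaaaaaca
Yam1 (chr17:39848759-39848788, plus strand): ggtcgccctgccgcccccagggtcgggggg
The signal stood in the last bases of Malat1, Lhx1os, Snhg12 and Gm27216. Neither AATAAA nor its common variant ATTAAA lay in the last 40 bases of the longest transcript of Neat1, 1600020E01Rik or Yam1. For Neat1 this is the transcript of 20771 bases, and the ends of shorter transcripts are not shown. Neat1 and Yam1 were among the most abundant members. Over the 176 members with a GENCODE transcript, 101 (57.4%) held either motif in that window, 77 with AATAAA, 28 with ATTAAA and 4 with both. Of 11327 protein-coding genes with a mean of at least 1 FPKM, 71.9% held either. The reverse complements, which mark no signal, were found in 10.8% of the members and 11.1% of the protein-coding genes. Members with a signal had a median level of 2.64 FPKM and members without one 2.04 FPKM.

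Most of the members were scarce and a handful were abundant. Their mean levels ran between 1.01 and 204 FPKM with a median of 2.34 FPKM, against a median of 9.21 FPKM for the 11352 protein-coding genes that passed the same cut. A mean of at least 2 was reached by 109 members, of at least 5 by 49, of at least 10 by 23, of at least 50 by 4 and of at least 100 by 2. Among lincRNAs off X and Y, 15.1% passed the cut, against 66.5% of protein-coding genes. The members were also shorter, with a median summed exon length of 1468 bases against 3090 bases, and ranged between 269 bases and the 20771 bases of Neat1. Because they were short and scarce, few reads stood behind most of them: the median member had 61.3 reads per library and 26 members had fewer than 20.

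**Figure D1:**
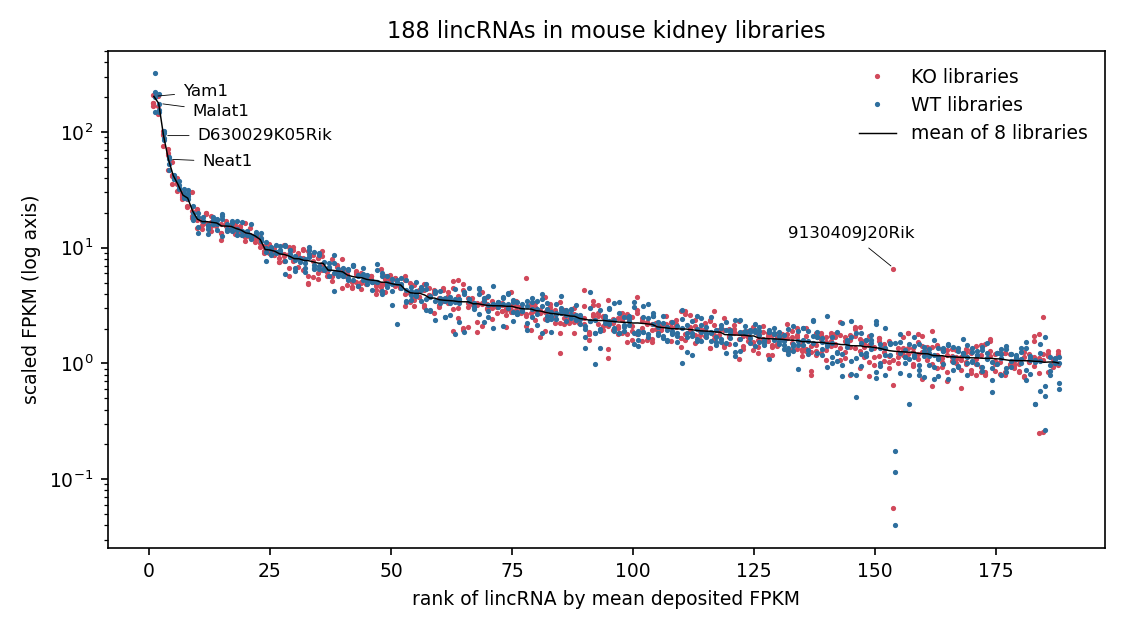
Scaled FPKM (log axis) of the 188 lincRNAs in each of 4 KO libraries (red) and 4 WT libraries (blue) against their rank by mean deposited FPKM, with the mean of 8 libraries as a black line. Levels drop steeply over the first ranks, and the KO and WT points mix along the whole curve. The 1 value of 0, that of 9130409J20Rik in WT replicate 2, is drawn at the bottom of the axis.

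The most abundant member was Yam1 (listed as Gm42418 in GENCODE M21, chr17:39846958-39848788, 1 exon), known as a muscle lincRNA under the transcription factor YY1. Its levels were 178, 208, 168 and 178 scaled FPKM in KO kidneys, against 222, 149.8, 199 and 321 in WT kidneys. The log2 fold change of KO over WT was -0.24 ± 0.19 (SE), with an adjusted p of 0.570. It was -0.04 without WT replicate 4, -0.41 without WT replicate 2 and -0.12 with GC and length trends removed. WT replicate 4 was the highest library and WT replicate 2 the lowest, so the WT kidneys spanned all the KO kidneys. Of its 1831 bases, 1245 overlap Rn18s-rs5, which RefSeq annotates as a pseudogene related to 18S ribosomal RNA (chr17:39846354-39848202). Reads from other copies of such a sequence could have been counted here, so the level of Yam1 is uncertain. Gm26917, a noncoding gene of another type that lies next to it (chr17:39845074-39846245), had 108, 113, 90.96 and 93.7 scaled FPKM in KO kidneys, against 81.3, 93.3, 76.7 and 99.8 in WT kidneys. The libraries' order for Gm26917 was not that for Yam1: WT replicate 4 was highest for Yam1 and within the KO range for Gm26917.

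Malat1 (chr19:5795690-5802672) and Neat1 (chr19:5824708-5845478) are neighbours on chromosome 19 and both stay in the nucleus, Malat1 at splicing speckles and Neat1 as the scaffold of paraspeckles. Malat1 had 206, 207, 143 and 168 scaled FPKM in KO kidneys, against 155, 148, 213 and 175 in WT kidneys. Its log2 fold change was 0.06 ± 0.14 (SE; adjusted p = 0.856). Its sign was not stable, with values between -0.05 and 0.17 over the settings tried. Neat1 had 71.5, 65.2, 63.9 and 46.8 scaled FPKM in KO kidneys, against 47.1, 60.2, 52.6 and 58.4 in WT kidneys. This gave a log2 fold change of 0.17 ± 0.13 (SE) and an adjusted p of 0.544. For both RNAs the genotypes overlapped, with the highest Malat1 in WT replicate 3 and the highest Neat1 in KO replicate 1. Being long, the pair held 55.0% of all reads counted to the members, while Yam1 alone held 14.9% and the top 4 members 38.9% of the members' summed mean FPKM.

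The third member by level, D630029K05Rik, had 94.5, 96.5, 76.2 and 102 scaled FPKM in KO kidneys, against 98.95, 102, 85.4 and 89.4 in WT kidneys, and its span overlaps that of the protein-coding gene Gm10271. The next were Gm10804, whose span overlaps Cd82, with means of 43.5 ± 8.06 scaled FPKM in KO kidneys and 40.8 ± 1.69 in WT kidneys, and AI480526, which starts 527 bases from Setd1b, a histone methyltransferase gene, with 35.8 ± 3.75 scaled FPKM in KO kidneys and 34.4 ± 2.50 in WT kidneys. Tmem250-ps (listed as C330006A16Rik) had 27.9 ± 1.40 scaled FPKM in KO kidneys and 29.1 ± 2.16 in WT kidneys and Gm12678 21.9 ± 5.59 scaled FPKM in KO kidneys and 19.7 ± 2.36 in WT kidneys. Gm12121 had 18.7 ± 3.11 scaled FPKM in KO kidneys and 16.6 ± 3.004 in WT kidneys, and 1810058I24Rik, which RefSeq annotates as protein-coding, 16.3 ± 1.37 scaled FPKM in KO kidneys and 17.3 ± 0.775 in WT kidneys. None of these 7 was called and each overlapped between genotypes. The remaining members of the top 12, Lhx1os and Gm27216, are described with the comparison below. The top 12 held 53.9% of the members' summed mean FPKM.

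As a class, the members took about the same small share of every library. They held 0.294, 0.321, 0.273 and 0.276% of the summed FPKM in KO kidneys, against 0.291, 0.276, 0.297 and 0.312% in WT kidneys. The mean shares were 0.291 ± 0.0221% in KO kidneys and 0.294 ± 0.0149% in WT kidneys (SD, n = 4 each), a difference smaller than either SD. Counted in reads, the shares were 0.455 ± 0.0442% in KO kidneys and 0.437 ± 0.0254% in WT kidneys. Without Malat1, Neat1 and Yam1 the shares of reads were 0.165 ± 0.00588% in KO kidneys and 0.162 ± 0.00270% in WT kidneys, so most of the spread between libraries came with these 3 RNAs.

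The type lincRNA was that of the deposited table, and later annotations type some members otherwise. Of the 188, 176 have their identifier in GENCODE M21, where 124 are lincRNAs, 18 antisense RNAs, 16 bidirectional promoter RNAs, 9 processed transcripts and 4 protein-coding genes. The 4 protein-coding ones are AI854703, Fam169b, RP24-474C15.1 (Gm4131) and 9130409J20Rik (Tmem238l). RefSeq symbols matched for 135 members, of which 122 are lncRNAs, 9 protein-coding and 4 pseudogenes of either kind. In the deposited coordinates, 42 members overlap the span of a protein-coding gene and a further 47 lie within 1000 bases of one, 39 of them head to head, that is on the opposite strand with the start sites facing away from each other. Whether counting used the strand is recorded neither in the labels nor in the processing notes, and where members overlap another gene the reads of the pair cannot be separated.

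The comparison of KO with WT kidneys asked which lincRNAs differ with loss of CTRP1 in aged mice. No member passed the threshold: 0 of 188 had a limma adjusted p under 0.05, adjusted over all 14022 genes tested, of which 0.0499% passed (7 genes). The smallest adjusted p among the members was 0.139, for 1600020E01Rik. At an unadjusted p under 0.05 there were 29 members (15.4%), against 15.4% of all genes tested. Of these, 14 were higher in KO kidneys, against a background of 7.18%, and 15 lower, against 8.26%; as shares of the members these were 7.45% and 7.98%. Genotypes did not overlap in any library for 17 members (9.04%), 7 of them higher in KO and 10 lower, against 8.62% of all genes (4.34% higher and 4.28% lower). In this main fit these shares lay near the background. With GC and length trends removed, 176 members could be tested and none was called. Of these, 27 (15.3%) had an unadjusted limma p under 0.05, against 11.1% of all genes in that setting. Limma-voom on the recovered reads also called 0 members, with 26 (13.8%) at an unadjusted p under 0.05, against 15.8% of all genes.

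The fold changes were centred on 0 and slightly wider than those of all genes. The members' median log2 fold change was -0.0020, against -0.0012 over all genes tested, with 93 members above 0 and 95 below. At the quantiles 0.05 and 0.95 they were -0.37 and 0.35, against -0.25 and 0.29 over all genes, many of which are counted with more reads. The extremes were 1.03 for 9130409J20Rik, which was 0.32 without KO replicate 3, and -0.66 for Gm11466. KO replicate 3 and WT replicate 3 were the libraries highest in urothelial genes in their genotypes. With each left out in turn, 27 and 29 members had an unadjusted p under 0.05, against 13.96% and 21.8% of all genes. No member was called in either case.

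**Figure D2:**
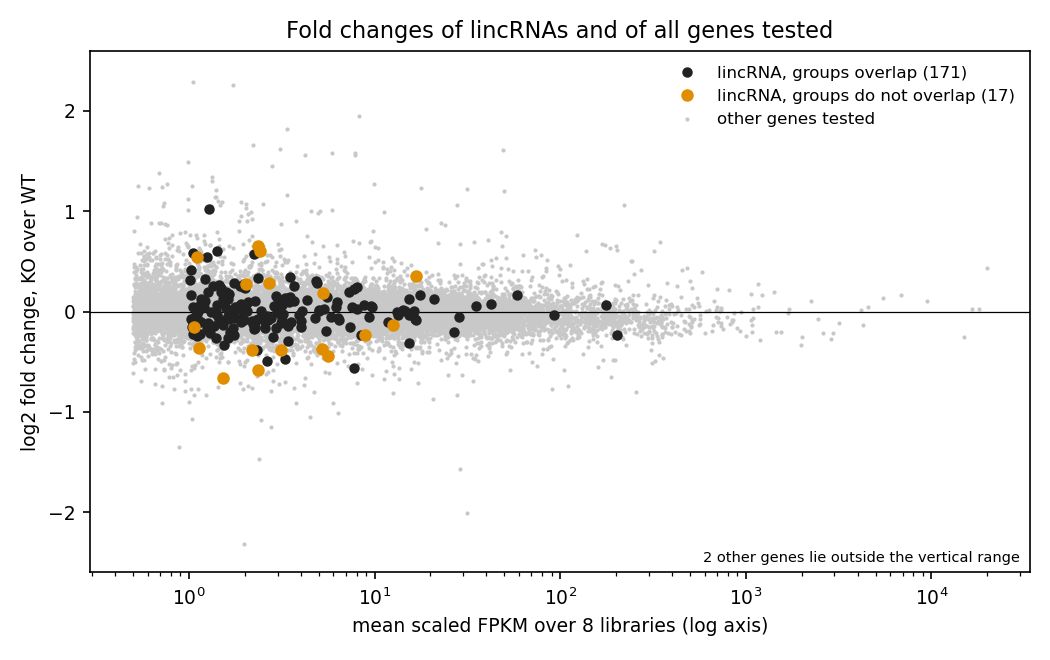
Log2 fold change of KO over WT kidneys against mean scaled FPKM (log axis) for the 14022 genes tested. Black and orange points are the 188 lincRNAs, orange for the 17 whose KO and WT libraries do not overlap, and grey points are the other genes; the lincRNAs lie within the grey cloud, between -0.66 and 1.03.

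Among members higher in KO kidneys without overlap, the most abundant was Gm27216 (chr9:83240481-83254540), a spliced lincRNA 93796 bases from Hmgn3. It had 19.8, 19.8, 16.4 and 19.7 scaled FPKM in KO kidneys, against 15.7, 15.4, 13.1 and 14.5 in WT kidneys. KO differed from WT by 0.36 ± 0.08 (SE) on the log2 scale, adjusted p = 0.151. All KO libraries lay above all WT libraries, although KO replicate 3 came within 1 scaled FPKM of the highest WT library. Its 3' end, shown above, carries AATAAA, and ATTAAA also lies in its 40-base window. The window holds a reverse complement of these motifs as well, which marks no signal.

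Gm12576, a lincRNA of 2 exons on chromosome 11, was also higher in every KO library. It had 4.30, 3.14, 2.49 and 2.21 scaled FPKM in KO kidneys, against 1.68, 2.004, 2.12 and 1.35 in WT kidneys. On the log2 scale the difference of KO from WT was 0.61 ± 0.18 (SE), adjusted p = 0.202. The genotypes did not overlap, though KO replicate 4 lay just above WT replicate 3, and KO replicate 1 was the highest library.

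Gm15348 (chr8:12706944-12719127), 34696 bases from Tubgcp3, had 3.46, 3.19, 2.59 and 2.68 scaled FPKM in KO kidneys, against 1.84, 1.82, 0.990 and 2.36 in WT kidneys. The log2 fold change of KO over WT was 0.66 ± 0.18 (SE), with an adjusted p of 0.182. WT replicate 3 was the lowest library. The lincRNA of ID ENSMUSG00000085942 that shares the symbol Malrd1 with a protein-coding gene averaged 1.40 ± 0.217 scaled FPKM in KO kidneys and 0.810 ± 0.205 in WT kidneys, and it rests on 52 reads over the KO libraries and 29 over the WT libraries. Its log2 fold change was 0.55 ± 0.14 (SE; adjusted p = 0.170). With deposited means of 1.41 FPKM in KO and 0.809 FPKM in WT, it passed the cut only through the genotype where it was higher. Its place among the members is therefore no sign of a difference. Smaller differences were seen for 2500002B13Rik, which starts 194 bases from the histone deacetylase complex gene Sap30 and had 5.61 ± 0.174 scaled FPKM in KO kidneys and 4.88 ± 0.388 in WT kidneys. 2810029C07Rik, which starts 108 bases from the kinase gene Mark3, had 3.01 ± 0.213 scaled FPKM in KO kidneys and 2.40 ± 0.389 in WT kidneys. Their log2 fold changes were 0.18 and 0.29, with adjusted p-values of 0.261 and 0.263.

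The member with the smallest p was 1600020E01Rik (chr6:86526271-86564442), whose span overlaps that of Pcbp1, the gene of a poly(C)-binding protein, and which GENCODE M21 types as antisense. It had 4.62, 5.04, 4.52 and 4.57 scaled FPKM in KO kidneys, against 5.27, 7.11, 7.07 and 6.93 in WT kidneys. This gave a log2 fold change of -0.44 ± 0.09 (SE) and an adjusted p of 0.139. The KO libraries lay close together below all WT libraries, and WT replicate 1 was the lowest of the WT libraries. With WT replicate 1 left out its adjusted p was 0.0376, the only setting tried in which it passed, and over all settings it lay between 0.0376 and 0.371.

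5730437C11Rik (chr3:98935644-98941256) was lower in all KO libraries. It had 1.81, 1.89, 1.78 and 1.61 scaled FPKM in KO kidneys, against 4.18, 2.99, 2.35 and 2.33 in WT kidneys. KO differed from WT by -0.58 ± 0.15 (SE) on the log2 scale, adjusted p = 0.173. Its nearest protein-coding gene, Hao2, lies 42405 bases away and encodes a peroxisomal hydroxyacid oxidase. Hao2 averaged 195 ± 12.2 scaled FPKM in KO kidneys and 232 ± 16.0 in WT kidneys (SD, n = 4 each; log2 fold change -0.25, adjusted p = 0.173). Neither passed the threshold.

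2810008D09Rik, named Snhg20 in RefSeq, is a small nucleolar RNA host on chromosome 11. It had 7.59, 8.23, 7.57 and 8.97 scaled FPKM in KO kidneys, against 10.3, 9.50, 9.27 and 9.33 in WT kidneys. On the log2 scale the difference of KO from WT was -0.24 ± 0.07 (SE), adjusted p = 0.190. The gap between the genotypes was narrow, between KO replicate 4 and WT replicate 3. C330002G04Rik, which lies 47506 bases from the channel gene Trpm3, averaged 1.83 ± 0.296 scaled FPKM in KO kidneys and 2.52 ± 0.226 in WT kidneys. AU020206, 15153 bases from the kinase anchor gene Akap13, averaged 4.44 ± 0.385 scaled FPKM in KO kidneys and 5.96 ± 1.12 in WT kidneys. Their log2 fold changes were -0.38 and -0.37, with adjusted p-values of 0.186 and 0.217. Gm11466 averaged 1.08 ± 0.296 scaled FPKM in KO kidneys and 1.99 ± 0.439 in WT kidneys but was counted with only 21 reads over the KO libraries and 38 over the WT libraries. The log2 fold change of KO over WT was -0.66 ± 0.17 (SE), with an adjusted p of 0.164.

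**Figure D3:**
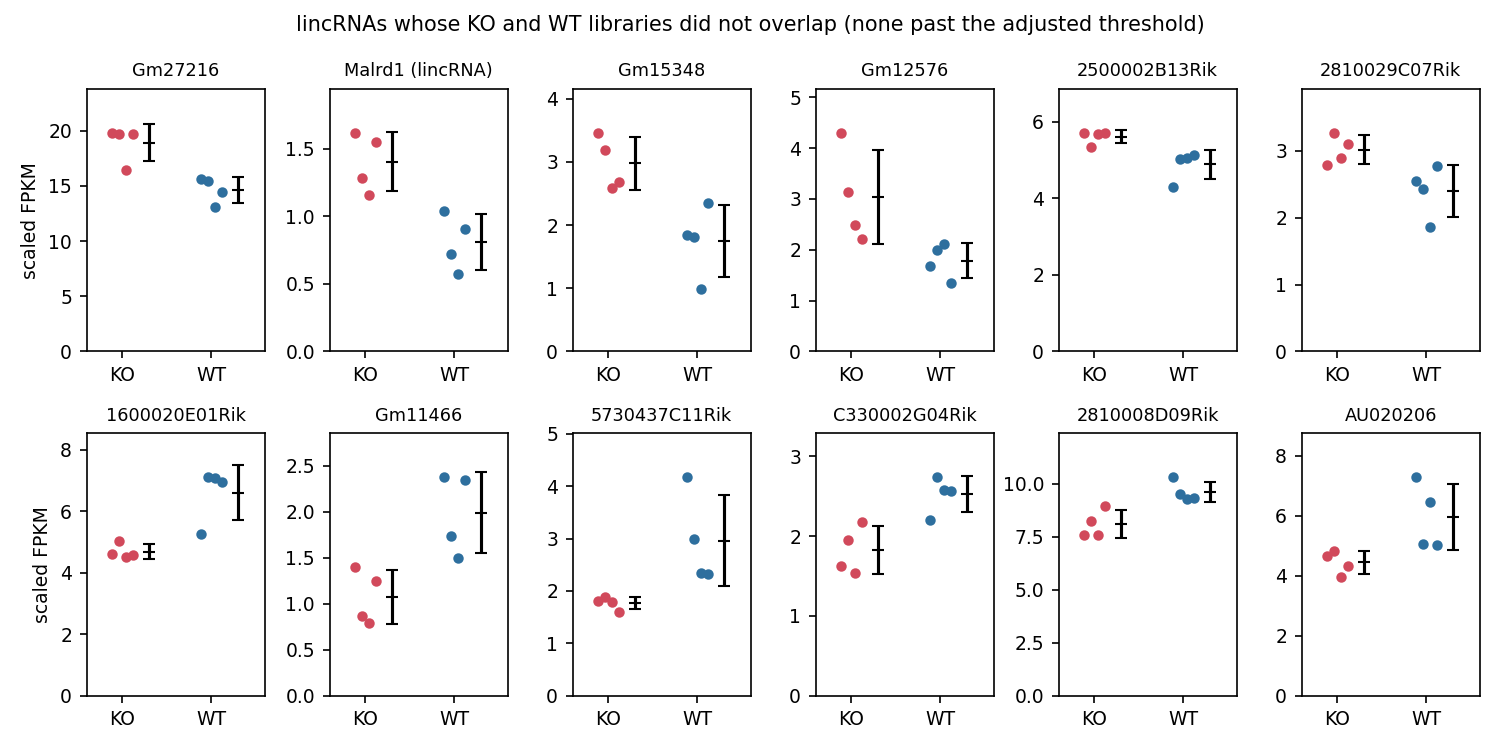
Scaled FPKM in each KO library (red, left) and each WT library (blue, right) of the 12 lincRNAs with the smallest p among those whose genotypes do not overlap, 6 higher in KO (top) and 6 lower (bottom). Black bars give the mean and SD of each genotype, and axes start at 0. The panel headed Malrd1 is the lincRNA of that symbol, which passed the cut through KO kidneys only.

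Lhx1os (chr11:84525660-84535831), the eighth most abundant member, lies 125 bases head to head from Lhx1, a homeobox gene needed to form the nephron. Lhx1os had 27.7, 22.7, 22.8 and 26.3 scaled FPKM in KO kidneys, against 31.5, 28.97, 26.3 and 28.2 in WT kidneys. Its log2 fold change was -0.21 ± 0.08 (SE; adjusted p = 0.270). KO replicate 1 lay inside the WT range and the other KO libraries just below or below it. Lhx1 had 7.77, 7.33, 6.38 and 8.14 scaled FPKM in KO kidneys, against 10.2, 8.86, 9.28 and 9.83 in WT kidneys (log2 fold change -0.35 ± 0.08 (SE), adjusted p = 0.155), with all KO libraries below all WT libraries.

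Linchoxa1 was not among the members named by rule and is given here because its call turned on a single library. It had 9.46, 4.81, 5.75 and 4.98 scaled FPKM in KO kidneys, against 8.75, 9.48, 10.1 and 8.37 in WT kidneys. This gave a log2 fold change of -0.57 ± 0.18 (SE) and an adjusted p of 0.215. KO replicate 1 lay within the WT range, and the other KO libraries were below all WT libraries. Without KO replicate 1 its adjusted p was 0.0216, and over all settings it lay between 0.0216 and 0.418.

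Members and their nearest protein-coding genes differed between genotypes with little resemblance. Across the 166 members whose neighbour was also tested, Spearman's rho between the log2 fold changes of member and neighbour was 0.27. It was 0.29 for the 46 pairs within 1000 bases, 0.32 for the 83 farther apart and 0.089 for the 37 whose spans overlap. All pairs were measured in the same 8 libraries and are not independent, so these are descriptions. Levels of a protein-coding neighbour are given above for Hao2 and Lhx1 only. Both were lower in KO kidneys like their members, and they do not stand for the other pairs. Fold changes also followed base composition: rho with GC content was -0.24 over 176 members and -0.46 over 13947 genes. The median log2 fold change was 0.04 in the third of members lowest in GC, 0.0061 in the middle and -0.05 in the highest.

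Within 10 Mb of C1qtnf1 on chromosome 11, where 129 sequence could remain, lay 6 members. The lower ones were 2810008D09Rik, Gm17586, Gm11766 and Gm16755, the last 3 with log2 fold changes of -0.13, -0.08 and -0.12. 2610035D17Rik and Gm11752 had 0.25 and 0.26. Genotypes did not overlap for 2810008D09Rik and for Gm17586, which averaged 12.01 ± 0.664 scaled FPKM in KO kidneys and 13.2 ± 0.425 in WT kidneys; over all genes tested 8.62% did not overlap. With 1 library left out the log2 fold change of Gm11752 lay between 0.12 (without WT replicate 2 or KO replicate 1) and 0.48 (without WT replicate 1). The adjusted p-values of the 6 lay between 0.190 and 0.748. Whether strain sequence takes part in these values was not tested.

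Hosts of small nucleolar RNAs carry these guides of RNA modification in their introns and many are turned over quickly in the cytoplasm. The list held 18 tested genes, 9 of them members, and none was called; 8 lay above 0 and 10 below, with a median log2 fold change of -0.05. Snhg12 had 16.2 ± 2.02 scaled FPKM in KO kidneys and 16.97 ± 1.14 in WT kidneys and Snhg18, 151 bases head to head from Sema5a, 16.4 ± 0.680 scaled FPKM in KO kidneys and 16.3 ± 1.59 in WT kidneys. 2410004N09Rik (Epb41l4aos) had 13.5, 13.3, 11.7 and 16.2 scaled FPKM in KO kidneys, against 19.6, 17.7, 18.9 and 12.5 in WT kidneys. KO differed from WT by -0.31 ± 0.14 (SE) on the log2 scale, adjusted p = 0.329. WT replicate 4 lay among the KO libraries. The list also held 1700020I14Rik (Oip5os1, also called Cyrano), so the counts and median above include it. It is a conserved lincRNA known for directing the decay of miR-7 rather than as such a host. 1700020I14Rik had 16.1 ± 0.742 scaled FPKM in KO kidneys and 14.7 ± 0.923 in WT kidneys. On the log2 scale the difference of KO from WT was 0.13 ± 0.06 (SE), adjusted p = 0.339. With GC and length trends removed it was 0.0021. Its libraries were among the closest of all members, with a coefficient of variation (CV) within genotypes of 5.44%.

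None of the other lncRNA lists held a called gene. Of 8 nuclear retained lncRNAs tested, 6 lay above 0 with a median log2 fold change of 0.05. The lowest value was that of Yam1 (-0.24), whose level is uncertain, and the highest that of Gm26917 (0.21), which lies next to Yam1. The 5 tested genes of the p53 and stress response list had a median of 0.03. They include Trp53rk, a protein-coding gene and no lncRNA, with a log2 fold change of -0.06. Gm26809, a member on this list, had 5.85 ± 0.572 scaled FPKM in KO kidneys and 5.23 ± 0.636 in WT kidneys. The 2 imprinted lncRNAs tested had log2 fold changes of 0.02 and 0.08. Proteins that act on lncRNAs were equally without calls, with medians of 0.03 over 22 paraspeckle proteins, -0.0037 over 20 genes of the nuclear exosome and its adaptors, 0.02 over 15 genes of nonsense-mediated decay, 0.0035 over 14 proteins of small nucleolar ribonucleoproteins and 0.01 over 15 m6A writers and readers. The median over all genes tested was -0.0012.

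MicroRNA hairpins lay inside the span of 9 members, in 7 of them on the same strand. The mature sequences from these 7 loci are shown, for 1 arm of each hairpin, because they are what such a transcript would be processed to; a level of the host says nothing of the level of the microRNA, which this assay did not measure. Sequences are from RefSeq (GRCm38.p6), 5' to 3', with the seed, bases 2 to 8, in capitals.
miR-29b-3p, in A330023F24Rik: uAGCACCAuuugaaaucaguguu
miR-29c-3p, in A330023F24Rik: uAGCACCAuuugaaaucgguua
let-7d-5p, in 6720427I07Rik: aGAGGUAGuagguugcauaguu
miR-30c-5p, in Gm27028: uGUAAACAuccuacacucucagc
miR-101a-3p, in E130102H24Rik: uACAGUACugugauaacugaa
miR-142a-3p, in A430104N18Rik: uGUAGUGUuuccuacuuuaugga
miR-1839-5p, in 2900076A07Rik: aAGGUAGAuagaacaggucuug
miR-6516-5p, in 2810008D09Rik: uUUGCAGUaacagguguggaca
A330023F24Rik holds 2 hairpins whose 3p arms share the seed AGCACCA, and the other seeds shown differ. The miR-29 family is known for repressing collagen messages and miR-30 for its part in podocytes and tubules. A330023F24Rik (chr1) had 3.63, 3.21, 3.69 and 3.09 scaled FPKM in KO kidneys, against 3.51, 3.33, 4.26 and 3.70 in WT kidneys. The log2 fold change of KO over WT was -0.10 ± 0.09 (SE), with an adjusted p of 0.599. Gm27028 had 5.46, 5.41, 5.49 and 4.70 scaled FPKM in KO kidneys, against 2.21, 5.22, 5.002 and 4.97 in WT kidneys. Its log2 fold change was 0.31 ± 0.21 (SE; adjusted p = 0.512). Without WT replicate 1 it was 0.05. WT replicate 1 was the low library and the others of both genotypes mixed.

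E130102H24Rik, the most abundant of the 7 hosts, averaged 14.7 ± 1.45 scaled FPKM in KO kidneys and 14.6 ± 1.65 in WT kidneys. 2900076A07Rik averaged 6.20 ± 0.387 scaled FPKM in KO kidneys and 6.61 ± 0.692 in WT kidneys and 6720427I07Rik 1.90 ± 0.0885 scaled FPKM in KO kidneys and 1.83 ± 0.297 in WT kidneys. A430104N18Rik (Mir142hg), whose microRNA marks blood cells, had 4.30, 4.85, 1.93 and 2.03 scaled FPKM in KO kidneys, against 3.98, 1.88, 4.17 and 4.15 in WT kidneys. This gave a log2 fold change of -0.14 ± 0.31 (SE) and an adjusted p of 0.855. Its level was near 2 in KO replicates 3 and 4 and WT replicate 2 and near or above 4 in the others, on 61 reads over the KO libraries and 62 over the WT libraries. Over the 7 same-strand hosts the median log2 fold change was -0.08; 1 of them, 2810008D09Rik, had an unadjusted p under 0.05, against 15.4% of all genes, and the smallest adjusted p was 0.190. Of the 5 tested genes on a separate list of known microRNA host lncRNAs, which A430104N18Rik is also on, none was called and the median log2 fold change was 0.07.

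Members with fewer reads spread more between libraries of a genotype. The median CV within genotypes was 17.1%, with quartiles of 11.5% and 23.1%. The chi-square of the reads per degree of freedom, which is 1 for counting error alone, had a median of 1.78 and was under 2 for 108 members. It exceeded 10 for 6 members: Malat1 (608), Neat1 (412), Yam1 (386), 9130409J20Rik (50.6), D630029K05Rik (36.1) and Gm10804 (27.7). The first 3 and the last 2 are among the most abundant, where counting error is small. At 50 to 100 reads per library the median CV was 14.7% for 56 members and 16.3% for 807 protein-coding genes. At 200 to 500 reads it was 7.77% for 20 members and 8.71% for 3004 protein-coding genes. At 20 to 50 reads the medians were 22.4% for 48 members and 21.8% for 339 protein-coding genes. At 100 to 200 reads they were 11.9% for 27 members and 12.1% for 1419 protein-coding genes. At 500 to 2000 reads the members spread more, with 10.2% for 6 members and 6.56% for 4141 protein-coding genes. The median chi-square per degree of freedom there was 8.12 and 3.95.

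**Figure D4:**
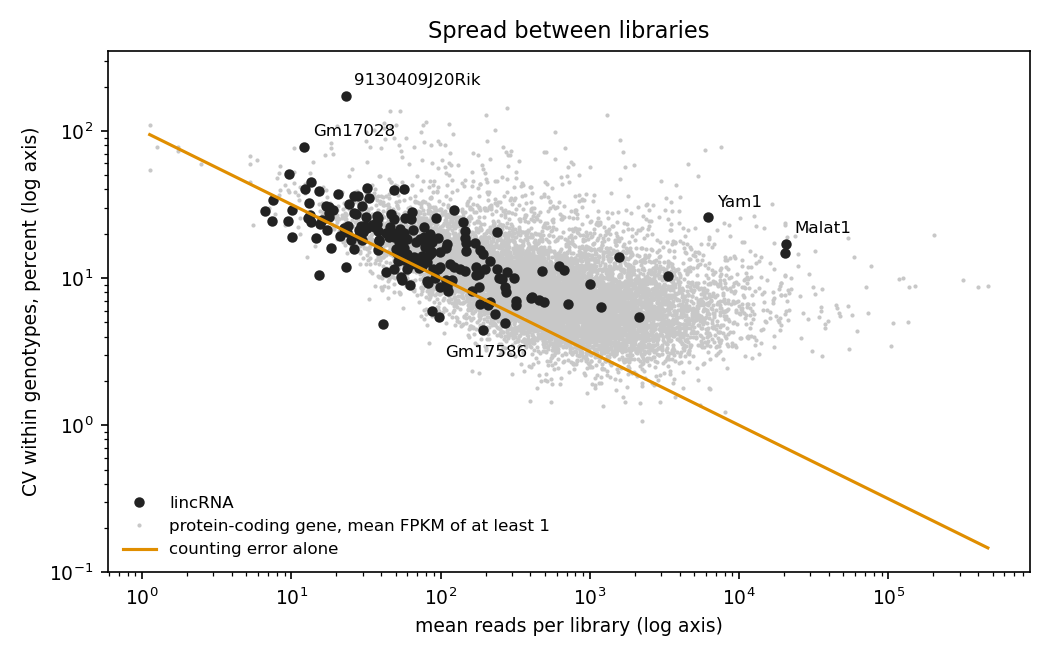
CV within genotypes (percent, log axis) against mean reads per library (log axis) for the lincRNAs (black) and for protein-coding genes with a mean of at least 1 FPKM (grey), with the CV that counting error alone gives (orange line). Most lincRNAs follow the grey cloud, and 9130409J20Rik stands highest at 173%.

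The steadiest members with a mean of at least 2 were Gm17586, B230354K17Rik, E230013L22Rik and 1700020I14Rik, with CVs of 4.42, 4.97, 5.44 and 5.44%. Gm17586 and B230354K17Rik start within 1000 bases of Mafg and Cdc5l, head to head with them, and E230013L22Rik overlaps Rab20. At the other end, 1190002F15Rik (Lockd, downstream of Cdkn1b), 1010001B22Rik, RP24-159O13.1, A330033J07Rik, Gm11752 and E230001N04Rik had CVs of 51.0, 44.7, 40.7, 40.4, 40.2 and 39.6%. None of these 6 had a log2 fold change beyond -0.16 or 0.26.

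The most variable member was 9130409J20Rik, which GENCODE M21 lists as the protein-coding Tmem238l. It had 1.08, 0.655, 6.60 and 0.0564 scaled FPKM in KO kidneys, against 0.176, 0, 1.51 and 0.116 in WT kidneys. WT replicate 2 had no read, where a count of 0 allows up to 3 reads or 0.157 scaled FPKM, and KO replicate 3 held 123 of the 155 KO reads. KO differed from WT by 1.03 ± 0.71 (SE) on the log2 scale, adjusted p = 0.510. Gm17028, 425 bases from the homeobox gene Alx1, had 1.06, 1.21, 2.54 and 0.258 scaled FPKM in KO kidneys, against 0.268, 0.640, 1.68 and 0.528 in WT kidneys. On the log2 scale the difference of KO from WT was 0.41 ± 0.42 (SE), adjusted p = 0.660. Without KO replicate 3 it was 0.10, without KO replicate 4 0.76, without WT replicate 1 0.20 and without WT replicate 3 0.71. In each genotype replicate 3 was the highest library for both members, although replicate numbers do not link animals of different genotypes.

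The same 2 libraries were high in 6 genes of urothelium, the lining of the renal pelvis. Upk1a, Upk1b, Upk2, Upk3a and Upk3b, which encode uroplakins, and the basal keratin gene Krt5 were looked at after the members' values had been seen. Their sum was 8.15, 11.9, 23.5 and 3.30 scaled FPKM in KO kidneys, against 10.4, 3.08, 19.7 and 1.15 in WT kidneys. Replicate 3 was again highest in each genotype, and in WT replicate 4 3 of the 6 genes were below 0.1. Of keratin genes outside the sum, Krt18 was highest in replicate 3 of each genotype (25.2 and 18.9 scaled FPKM). Krt7 was highest in KO replicate 3 (24.6) but among WT kidneys in replicate 2 (19.9, against 18.2 in WT replicate 3). Akr1b3, the aldose reductase of the inner medulla, had 27.8, 18.999, 88.3 and 16.5 scaled FPKM in KO kidneys, against 15.6, 12.9, 35.5 and 16.2 in WT kidneys. Aqp2, the water channel of collecting duct, had 169.7, 122, 446 and 108 scaled FPKM in KO kidneys, against 132, 186, 177 and 189 in WT kidneys. KO replicate 3 was the highest library for both, and WT replicate 3 was high for Akr1b3 but not for Aqp2. Havcr1, a tubule injury marker, had 0.570, 0.569, 0.482 and 0.656 scaled FPKM in KO kidneys, against 0.527, 1.89, 4.73 and 0.519 in WT kidneys, highest in WT replicate 3. The injury markers Vcam1, Krt20, Spp1 and Clu were also highest in WT replicate 3 (12.5, 1.62, 555 and 131). Lcn2 was instead highest in KO replicate 3 (4.07, against 3.40 in WT replicate 3). The part of these cell types in the values of 9130409J20Rik and Gm17028 was not tested.

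**Figure D5:**
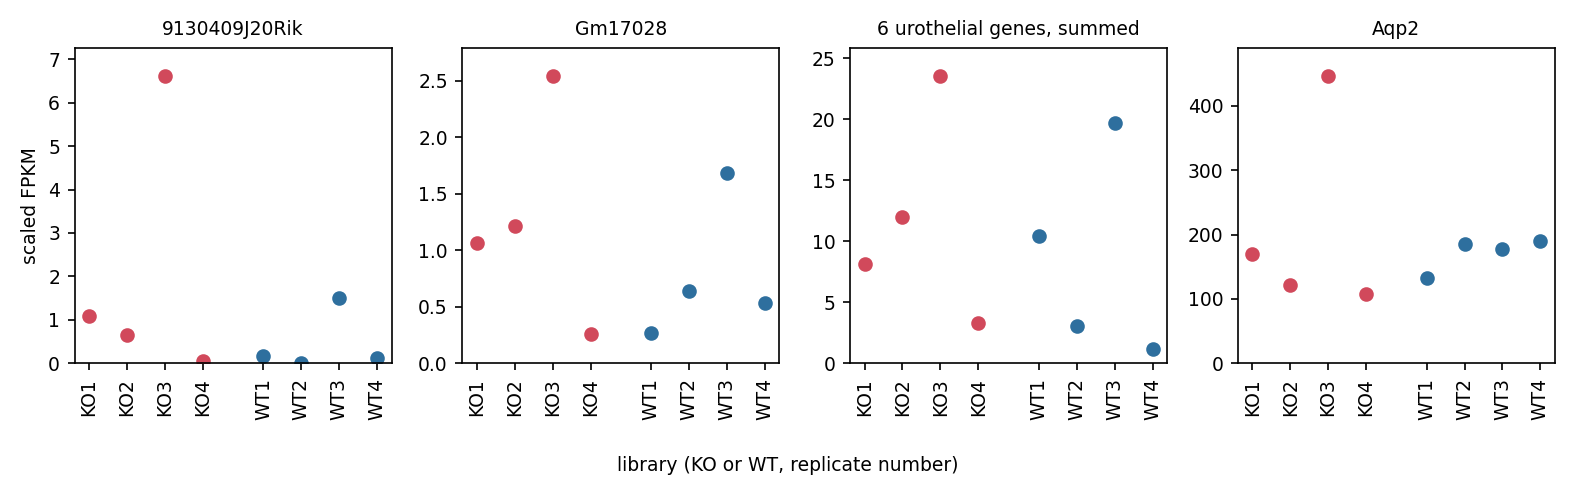
Scaled FPKM of 9130409J20Rik, Gm17028, the sum of 6 urothelial genes and Aqp2 in each KO library (red, left) and each WT library (blue, right). KO replicate 3 is the highest library in all 4 panels, and WT replicate 3 the highest WT library in the first 3.

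Some members reached a mean of 1 FPKM in a single genotype, which the cut on the mean over all libraries allows. These were 7 in KO kidneys and 6 in WT kidneys. Among them were 9130409J20Rik, Gm17028, Gm13470, 1110020A21Rik and the Malrd1 lincRNA in KO and Gm17597 in WT. Their adjusted p-values lay between 0.170 and 0.811, and their levels on both sides of the cut are no sign of a difference.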

How the data were processed

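Poly(A)-selected kidney RNA of 4 KO and 4 WT mice was sequenced, and the authors deposited 1 table of FPKM values per gene and library. CASAVA, STAR 2.5, HTSeq 0.6.1, DESeq2 and the build mm10 are named in the submitters' processing notes, without parameters; no source used here names the annotation release. FPKM times gene length gave whole reads (within 0.01) for 100% of values. The members and lists were chosen with earlier results of these data known.

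FPKM was scaled by median-ratio factors, and log2(scaled FPKM + 0.5) was fitted over all genes with a mean of at least 0.5 by limma 3.58.1 (lmFit, eBayes with trend; R 4.3.3), KO against WT, two-sided, Benjamini-Hochberg adjusted over 14022 genes, called at an adjusted p under 0.05. Fold changes are on that scale, which understates changes of low genes. The fit was also run on simulated reads that had the same spread beyond counting error for every gene. That run does not show what the fit can detect among members with few reads. Tables were made with Python 3.11.15 (pandas 2.3.3, scipy 1.17.1). CV is the SD over the mean within genotypes, pooled over both.

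Named members were the 12 most abundant, the 6 of smallest p in each direction without overlap between genotypes, the 8 most and 4 least variable, those at the cut, those within 10 Mb of C1qtnf1 and those on the gene lists. Positions, nearest protein-coding genes and the type lincRNA are those of the deposited table. GC content and the later types come from GENCODE M21 and RefSeq GRCm38.p6. Within a genotype, libraries differed by more than counting error (smallest pairwise chi-square per degree of freedom 5.86), so each was counted as 1 replicate. Replicates were numbered in accession order. Alternatives covered the pseudocount, filter, scaling, limma settings, voom on the recovered reads, GC and length trends, the cut, and each library left out.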

Additional observations from a re-analysis of the deposited data

Results flagged for a closer look

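Scaled FPKM of the 46 named members and of C1qtnf1 were examined in each genotype, 94 groups of 4 libraries in all. A library was taken to stand apart where its gap to the nearest other library as a share of the group's range exceeded Dixon's 95% critical value. Chance gives this in about 1 in 20 groups that are picked without regard to their spread. It was found in 10 of the groups examined. Some named members were picked for a high or a low CV, or because their genotypes do not overlap. The count of 10 can therefore not be set against the chance rate, and no excess is read from it.

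Among members with a tight group otherwise, 1810058I24Rik had 18.5 scaled FPKM in WT replicate 2, against 16.9 to 17.004 in the other WT libraries. Gm27216 had 16.4 in KO replicate 3, against 19.7 to 19.8 in the other KO libraries. 2500002B13Rik had 5.35 in KO replicate 2, against 5.68 to 5.71 in the other KO libraries, and 4.30 in WT replicate 1, against 5.03 to 5.14 in the other WT libraries. 1600020E01Rik had 5.27 in WT replicate 1, against 6.93 to 7.11. 1700020I14Rik had 16.1 in WT replicate 3, against 14.1 to 14.4.

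Larger departures were seen for 4 groups. 9130409J20Rik had 6.60 in KO replicate 3, against 0.0564 to 1.08 in the other KO libraries, and 1.51 in WT replicate 3, against 0 to 0.176 in the other WT libraries. RP24-159O13.1 had 5.47 in KO replicate 3, against 2.12 to 2.66 in the other KO libraries. A430104N18Rik had 1.88 in WT replicate 2, against 3.98 to 4.17 in the other WT libraries. KO replicate 3 and WT replicate 3 were also the libraries highest in urothelial genes in their genotypes (23.5 and 19.7 scaled FPKM summed), and the part of this in the values was not tested.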

How the results depend on the processing

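No paired analysis was possible because replicates were numbered in accession order and the labels link no KO animal to a WT animal. The count of called lincRNAs was 0 under each of the other pseudocounts, filters, scalings, limma settings, voom, removal of GC and length trends (176 members had a GC value) and an adjusted p under 0.1. Leaving out 1 library gave between 0 and 1 called: Linchoxa1 without KO replicate 1 (adjusted p = 0.0216) and 1600020E01Rik without WT replicate 1 (log2 fold change -0.54, adjusted p = 0.0376). At a cut of 0.5 FPKM 282 members and at 2 FPKM 109 members gave 0 calls. The difference in the members' share, KO minus WT, was -0.0030 percentage points by FPKM and 0.0173 by recovered reads, which weight long RNAs such as Malat1 and Neat1; the cause was not tested. With 1 library left out, the log2 fold change of Gm16755 lay between -0.20 and 0.0045 (above 0 without WT replicate 4), that of Malat1 between -0.0055 and 0.17 (below 0 without KO replicates 1 or 2 or WT replicate 2) and that of A430104N18Rik between -0.38 and 0.042 (above 0 without KO replicates 3 or 4). Malat1 was at -0.049 with GC and length trends removed. Linchoxa1 was at -0.77 without KO replicate 1. In all, 80 values of the main results and 561 of named genes kept their direction and side of the threshold, or their size within the spread between libraries. Depth limits the scarce members: 26 had fewer than 20 reads per library, and intervals from counts cover counting error only.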
